A study of Rattus norvegicus with 21 samples.

Results

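Laminin-332 and its integrin receptors were followed through 5 gene symbols, Lama3, Lamb3, Itga3, Itga6 and Itgb4, taken as every probe set of the array whose annotation carries 1 of these symbols and no other. This gave 5 of the 15866 probe sets tested: 1370538_at for Lama3, 1389282_at for Itga3, 1371186_at and 1371185_at for Itga6, and 1368612_at for Itgb4. The annotation used here pairs no probe set with Lamb3 alone, so 4 of the 5 genes have values. Lama3 is therefore the chain of the ligand described here.

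Laminin-332 is a basement membrane protein of epithelia, whose alpha chain is encoded by Lama3 and beta chain by Lamb3. Epithelial cells bind it through the integrin made of the Itga6 and Itgb4 subunits, which anchors hemidesmosomes to keratin filaments, and through the integrin of Itga3 and the beta-1 subunit, which connects to actin. In wounded or migrating epithelia these cells are known to lay down laminin-332 at their leading edge.

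The study stimulated 2 rat bladder carcinoma cell lines with the growth factor FGF1: NBTII-FGFR1, the NBTII line carrying a transfected FGF receptor 1, and NBTII itself. Each line was sampled before stimulation (0 h, called control cells in the labels) and after 0.5, 2, 6, 24 and 48 h of FGF1 at 20 ng/ml with heparin. The labels give the same FGF1 and heparin protocol for every sample, and no array after 0 h lacks FGF1, so time, heparin and handling cannot be told apart from it. They do not say whether the transfected line is 1 clone or a pool, nor whether replicates came from separate cultures, so a p-value here covers the variation among these particular samples, possibly technical alone. NBTII-FGFR1 had 2 arrays at 0, 2, 6, 24 and 48 h and 1 at 0.5 h. NBTII had 2 arrays at 2, 6, 24 and 48 h and 1 each at 0 and 0.5 h. That makes 21 arrays in 12 groups, and the spread of the 3 groups with 1 array was taken from the others. Total RNA was labelled and hybridised to expression arrays, and all levels below are log2 signals, with array medians of 6.13 to 6.22.

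Of the 8 epithelial markers, 6 (Krt5, Krt14, Krt8, Cdh1, Epcam and Cldn4) lay above the array median on every array, Krt19 lay below the lower quartile on every array, and the mean of the 8 ranged from 8.02 to 9.73 in NBTII-FGFR1 and from 8.30 to 9.77 in NBTII. None of the 6 fibroblast, 4 leukocyte and 2 endothelial markers measured lay above the median on every array, and their means ranged from 3.97 to 4.26, 4.08 to 4.41 and 3.10 to 3.35 in NBTII-FGFR1, and from 4.09 to 4.28, 4.10 to 4.48 and 3.12 to 3.38 in NBTII. Fgfr1 (1387498_a_at), the transfected gene, read 3.57 in replicate 1 of the 2 libraries labelled NBTII-FGFR1 0 h and 5.92 in replicate 2. NBTII at 0 h read 3.97, so at this probe set replicate 1 goes against its label. Across probe sets, however, that library correlated best with its own partner (r = 0.995). The NBTII arrays of 0 and 0.5 h, which have no partner, also correlated best with that library (r = 0.992 and 0.991). Fgfr1 at 1387498_a_at also read unevenly in NBTII-FGFR1 at 24 h, 4.56 in replicate 1 and 6.14 in replicate 2. The other Fgfr1 probe set, 1372447_at, read 4.48 to 4.88 over the arrays of both lines. NBTII-FGFR1 2 h replicate 1 correlated best, across probe sets, with the NBTII 0.5 h array (r = 0.990, against 0.988 with its own partner). Its partner and NBTII 2 h replicate 2 also correlated best with each other (0.993), above their own partners (0.988 and 0.992), at the same time of the other line. Below, the 2 arrays that stand apart are that 0 h library and replicate 1 of NBTII-FGFR1 at 2 h. The poly-A spike controls averaged 6.13 to 6.64 on the 3 arrays of 0 h and 5.33 to 5.72 on the 18 later arrays, and the part of this in differences from 0 h was not tested. For this reason comparisons that use no 0 h array stand beside those that do.

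Lama3 changed with time in both lines and was higher in NBTII-FGFR1 at the end of the course, while few differences of the integrin subunit genes passed the test. The Lama3 gene lies on rat chromosome 18, and the promoter window that RefSeq gives for it (assembly GRCr8, chr18:3952517-3952816, plus strand, 250 bases before to 50 after the start) sits inside the longer span annotated for the gene, 3797898 to 4033021. It is shown because Lama3 carries the time course, with the letters TGANTCA, the motif bound by AP-1 transcription factors, in capitals. This pattern, where N is any base, reads the same on both strands, so TGACTCA on 1 strand is TGAGTCA on the other. The Itga3 window (chr10:80518852-80519151, minus strand), from a gene with no call in any comparison, is shown beside it.
Lama3: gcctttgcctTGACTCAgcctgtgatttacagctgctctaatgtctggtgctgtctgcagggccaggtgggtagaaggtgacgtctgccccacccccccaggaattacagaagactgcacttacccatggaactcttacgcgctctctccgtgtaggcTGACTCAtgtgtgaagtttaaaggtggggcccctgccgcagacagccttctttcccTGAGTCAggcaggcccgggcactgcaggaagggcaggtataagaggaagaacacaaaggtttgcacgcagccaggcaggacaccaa
Itga3: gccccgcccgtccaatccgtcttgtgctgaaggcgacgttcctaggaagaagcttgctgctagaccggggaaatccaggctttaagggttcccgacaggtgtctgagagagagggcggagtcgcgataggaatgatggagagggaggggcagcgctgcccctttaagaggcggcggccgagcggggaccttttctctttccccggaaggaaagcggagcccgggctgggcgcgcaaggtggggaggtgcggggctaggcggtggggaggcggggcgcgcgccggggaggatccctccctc
Lama3 holds the motif at 3 places, beginning 240, 92 and 36 bases upstream of the start, the first 2 spelled TGACTCA and the last spelled TGAGTCA. The Itga3 and Lamb3 windows hold none. Of the 33469 rat promoter windows of this length, 7.33% hold the motif at least once, 0.415% at least 2 times, and 5 windows (0.0149%) at least 3 times. The GC box GGGCGG, searched on both strands, occurs 2 times in the Itga3 window and 0 times in those of Lama3 and Lamb3, and 33.1% of all windows hold at least 1. A match of letters is a description of the window and shows no binding. Itga6 and Itgb4 are named only.

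**Figure D1:**
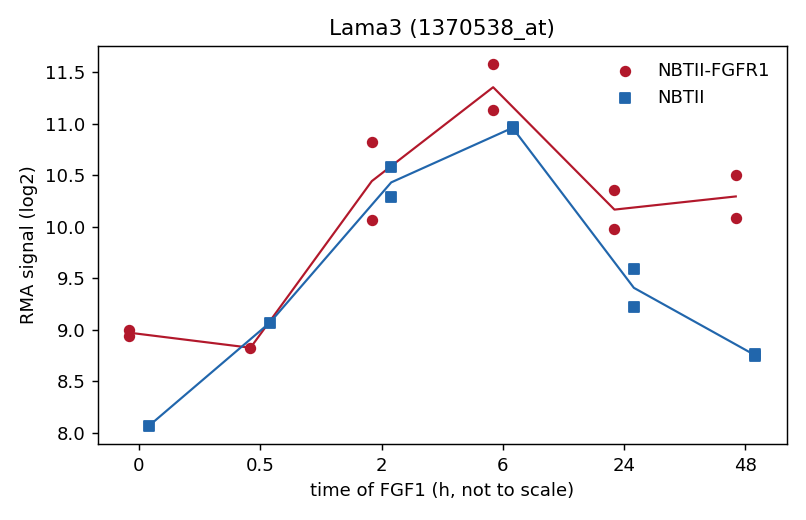
Log2 signal of Lama3 (probe set 1370538_at) against time of FGF1 in hours, with the time axis not to scale. Points are single arrays of NBTII-FGFR1 (red circles) and NBTII (blue squares), and lines join group means. Both lines are highest at 6 h, and at 48 h the NBTII-FGFR1 arrays (10.09 and 10.50) lie above the NBTII arrays (8.74 and 8.76).

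In NBTII-FGFR1, Lama3 read 8.95 and 9.00 at 0 h, 8.83 at 0.5 h, 10.07 and 10.82 at 2 h, 11.58 and 11.13 at 6 h, 10.35 and 9.98 at 24 h, and 10.50 and 10.09 at 48 h. All 8 arrays from 2 h on lay above the 3 earlier ones, and those of 6 h lay above those of the other times. In NBTII it read 8.07 at 0 h, 9.07 at 0.5 h, 10.29 and 10.58 at 2 h, 10.95 and 10.97 at 6 h, 9.23 and 9.59 at 24 h, and 8.74 and 8.76 at 48 h. Here the 6 h arrays were again highest, and by 48 h both arrays were below that of 0.5 h. In these bulk samples a change in RNA per cell and a change in the mix of cells cannot be told apart. Within its array, Lama3 ranked between the 75.3rd and the 98.3rd percentile of the probe sets.

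The order of the 12 group means ran from NBTII at 0 h (8.07) through NBTII at 48 h (8.75), NBTII-FGFR1 at 0.5 h (8.83), NBTII-FGFR1 at 0 h (8.97), NBTII at 0.5 h (9.07), NBTII at 24 h (9.41), NBTII-FGFR1 at 24 h (10.17), NBTII-FGFR1 at 48 h (10.29), NBTII at 2 h (10.43), NBTII-FGFR1 at 2 h (10.44) and NBTII at 6 h (10.96) to NBTII-FGFR1 at 6 h (11.35). Of the 11 steps between neighbours, 5 were larger than the SD of 0.27 pooled over the 9 pairs of arrays: NBTII 0 to NBTII 48 h, NBTII 0.5 to NBTII 24 h, NBTII 24 to NBTII-FGFR1 24 h, NBTII-FGFR1 2 to NBTII 6 h, and the last. No neighbouring step among the 4 groups from NBTII-FGFR1 at 24 h to NBTII-FGFR1 at 2 h passed it, nor among the 4 from NBTII at 48 h to NBTII at 0.5 h.

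Against 0 h, limma called 1 of the 5 member probe sets, Lama3, in NBTII-FGFR1 at 2, 6, 24 and 48 h, and none at 0.5 h. Of all probe sets tested, 1.99% were called at 0.5 h, 9.35% at 2 h, 21.3% at 6 h, 6.3% at 24 h and 21.4% at 48 h, so that a count of 1 in 5 is near the background at 6 and 48 h. Lama3 differed by -0.15 ± 0.28 (SE, adjusted p = 0.92) at 0.5 h. It was then higher by 1.47 ± 0.23 at 2 h (adjusted p = 0.00087), 2.38 ± 0.23 at 6 h (5.21-fold, adjusted p = 1.07e-05), 1.19 ± 0.23 at 24 h (adjusted p = 0.0078) and 1.32 ± 0.23 at 48 h (adjusted p = 0.00073). At 6 h this was the 52nd largest increase of the 15866. Without the 2 arrays that stand apart the differences were 1.82 at 2 h, 2.35 at 6 h, 1.17 at 24 h and 1.29 at 48 h, each still called. With only the arrays compared in the fit, the 2 h call was lost (adjusted p = 0.065). The 24 h call was lost when replicate 1 of the 0 h libraries labelled NBTII-FGFR1 was left out (adjusted p = 0.072), and also without NBTII-FGFR1 24 h replicate 1.

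In NBTII, Lama3 was higher than at 0 h by 2.36 ± 0.28 at 2 h (adjusted p = 0.00028), 2.89 ± 0.28 at 6 h (7.43-fold, adjusted p = 7.52e-05) and 1.34 ± 0.28 at 24 h (adjusted p = 0.036, kept in 17 of 26 alternatives). At 48 h the difference of 0.69 ± 0.28 was not called (adjusted p = 0.33). With only the arrays compared in the fit, the calls at 2 h (adjusted p = 0.057) and 6 h (adjusted p = 0.069) were lost, and 0 of all probe sets were called at 6 h, against 936 with all arrays. The members called were 1 of 5 at 2 h, 2 of 5 at 6 h (Lama3 and Itga6), 1 of 5 at 24 h and 1 of 5 at 48 h (Itga6), against 2.94%, 5.9%, 0.939% and 0.908% of all probe sets. All 4 comparisons rest on the single NBTII 0 h array, which was the lowest of the 21 arrays for 4 of the 5 member probe sets, against 5.12% of all probe sets tested. With the 0.5 h arrays as the baseline, a setting added after the data were seen, Lama3 in NBTII was still higher at 2 h (1.36, adjusted p = 0.030) and 6 h (1.89, adjusted p = 0.0014), but not at 24 h (0.34, adjusted p = 0.53) or 48 h (-0.32, adjusted p = 0.68). In NBTII-FGFR1 it was called at all 4 times from that baseline: 1.62 at 2 h, 2.53 at 6 h, 1.34 at 24 h and 1.47 at 48 h.

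Without any 0 h array, Lama3 at 48 h against 2 h differed by -0.15 ± 0.23 in NBTII-FGFR1 (adjusted p = 0.74) and fell by 1.68 ± 0.23 in NBTII (adjusted p = 0.00071). An F test over 2 to 48 h called 1 of 5 members in NBTII-FGFR1 (Lama3, F = 11.2, adjusted p = 0.0037) and 2 of 5 in NBTII (Lama3, F = 38.0, adjusted p = 0.00011, and Itga6), against 32.8% and 12.9% of all probe sets. At 48 h against 2 h the counts were 0 of 5 in NBTII-FGFR1 and 1 of 5 in NBTII, against 17.7% and 5.02%. The NBTII-FGFR1 F test was not called without NBTII-FGFR1 6 h replicate 1 (adjusted p = 0.061).

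Between the lines, Lama3 differed by 0.91 ± 0.28 at 0 h (adjusted p = 0.21), 0.01 ± 0.23 at 2 h, 0.39 ± 0.23 at 6 h (adjusted p = 0.48) and 0.76 ± 0.23 at 24 h (adjusted p = 0.17), none of them called. At 48 h it was higher in NBTII-FGFR1 by 1.54 ± 0.23 (2.91-fold, adjusted p = 0.0011), and the 2 arrays of each line did not overlap. This call held under all 25 alternatives run, with differences of 1.34 to 1.74. Averaged over 2 to 48 h, Lama3 was higher in NBTII-FGFR1 by 0.68 ± 0.11 (1.60-fold, adjusted p = 0.0012), also under all 25, although the 8 arrays of each line overlap. The members called were 1 of 5 at 48 h, 2 of 5 over 2 to 48 h (Lama3 and Itga6) and 1 of 5 at 0 h (Itga6), against 8.45%, 16.5% and 0.46% of all probe sets. At 2, 6 and 24 h no member was called, against 2.12%, 1.71% and 0.101%. Whether the line difference of Lama3 changed with time was not called by limma's F test over 2 to 48 h (F = 8.19, adjusted p = 0.11), nor was any other member, against 0.441% of all probe sets. Leaving out NBTII-FGFR1 2 h replicate 2, this test called Lama3 (adjusted p = 0.0097). That fit keeps, of NBTII-FGFR1 at 2 h, only the array that stands apart, and called 1062 probe sets in place of 70. The difference between the lines in mean response from 0 h was -0.23 ± 0.30 for Lama3 (adjusted p = 0.87), against 0.92 ± 0.34 (adjusted p = 0.37) from the 0.5 h baseline, so that its sign depended on the baseline. From 0 h, 0 of 5 members were called there, against 0.214%.

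**Figure D2:**
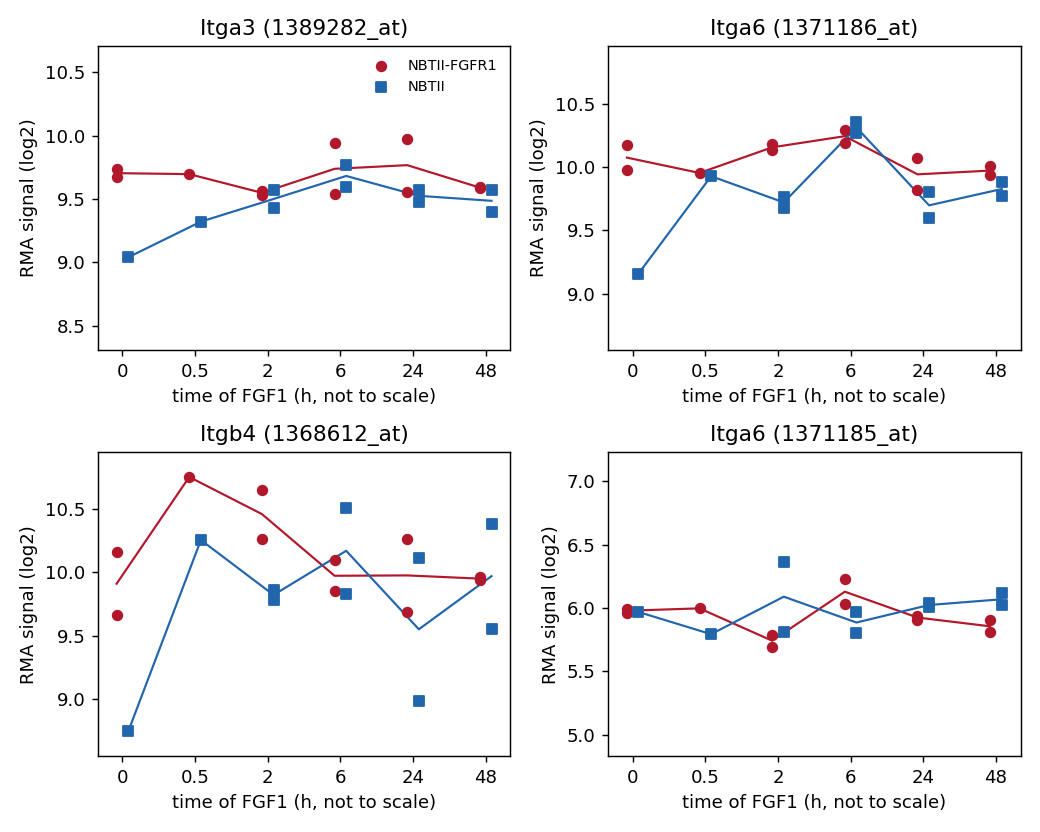
Log2 signal of the integrin subunit probe sets against time of FGF1 in hours (not to scale), with single arrays of NBTII-FGFR1 (red circles) and NBTII (blue squares) and lines through group means. Each y axis spans the same range of log2 signal. The NBTII 0 h array is lowest for Itga3, Itga6 (1371186_at) and Itgb4.

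Itga3 encodes the alpha subunit that pairs with beta-1 to form a laminin-332 receptor. Its probe set read 9.67 and 9.74 at 0 h, 9.70 at 0.5 h, 9.56 and 9.54 at 2 h, 9.94 and 9.54 at 6 h, 9.98 and 9.56 at 24 h, and 9.59 and 9.59 at 48 h in NBTII-FGFR1. In NBTII it read 9.04 at 0 h, 9.32 at 0.5 h, 9.58 and 9.43 at 2 h, 9.77 and 9.59 at 6 h, 9.57 and 9.48 at 24 h, and 9.57 and 9.40 at 48 h. The NBTII arrays of 0 and 0.5 h were the lowest of the course, and the arrays of the lines overlapped at 2, 6 and 24 h but not at 48 h, where NBTII-FGFR1 was above by a margin within the pooled SD. Only 2 of the 11 steps between ordered group means passed the pooled SD of 0.16. No comparison called Itga3. At 6 h against 0 h in NBTII the difference was 0.64 ± 0.18 (adjusted p = 0.055), which 7 of 26 alternatives called, array weights among them (adjusted p = 0.028), and at 0 h between the lines it was 0.66 ± 0.18 (adjusted p = 0.16).

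Itga6 encodes the alpha subunit of the hemidesmosome integrin, and its 2 probe sets did not give the same picture. At 1371186_at, NBTII-FGFR1 read 9.97 and 10.17 at 0 h, 9.95 at 0.5 h, 10.13 and 10.18 at 2 h, 10.29 and 10.19 at 6 h, 10.07 and 9.82 at 24 h, and 9.93 and 10.01 at 48 h. NBTII read 9.16 at 0 h, 9.93 at 0.5 h, 9.68 and 9.76 at 2 h, 10.27 and 10.35 at 6 h, 9.80 and 9.59 at 24 h, and 9.77 and 9.88 at 48 h. The 6 h arrays were high in both lines, and the NBTII 0 h array was far below the rest. In NBTII the 6 h arrays were higher than that of 0 h by 1.15 ± 0.15 (adjusted p = 0.0004), and those of 48 h by 0.67 ± 0.15 (adjusted p = 0.046, kept in 11 of 26 alternatives). The first became 0.38 (adjusted p = 0.17) and the second -0.10 when the 0.5 h array was the baseline. No comparison with 0 h in NBTII-FGFR1 called it. Within NBTII from 2 to 48 h it varied (F = 11.7, adjusted p = 0.0077), a call lost without NBTII 6 h replicate 2 (adjusted p = 0.083).

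Between the lines, 1371186_at was higher in NBTII-FGFR1 by 0.92 ± 0.15 at 0 h (adjusted p = 0.018, kept in 23 of 26 alternatives), where the lone NBTII array stands, against a difference of 0.03 at 0.5 h. Over 2 to 48 h it was higher in NBTII-FGFR1 by 0.19 ± 0.06 (adjusted p = 0.043), a call that 8 of 25 alternatives kept. The other probe set, 1371185_at, read 5.69 to 6.36 over all 21 arrays, between the 44.6th and the 53.1st percentile of its array. It was called in no comparison, and none of its 11 steps passed its pooled SD of 0.15. With the mean of both probe sets as the level of Itga6, the 1 difference called was NBTII at 6 h against 0 h (0.54, adjusted p = 0.024).

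Itgb4 encodes the beta subunit whose long cytoplasmic tail binds plectin in the hemidesmosome. NBTII-FGFR1 read 9.66 and 10.16 at 0 h, 10.75 at 0.5 h, 10.26 and 10.65 at 2 h, 10.09 and 9.85 at 6 h, 10.26 and 9.68 at 24 h, and 9.93 and 9.96 at 48 h. NBTII read 8.74 at 0 h, 10.25 at 0.5 h, 9.78 and 9.86 at 2 h, 10.51 and 9.83 at 6 h, 10.12 and 8.98 at 24 h, and 10.38 and 9.55 at 48 h. The 2 NBTII arrays of 24 h lay further apart than any other pair of a group, and the pooled SD of 0.42 was the largest of the 5 probe sets. No comparison called Itgb4. The smallest adjusted p-values were those of 1.43 ± 0.42 in NBTII at 6 h against 0 h (adjusted p = 0.063, called in 5 of 26 alternatives) and 1.18 ± 0.32 at 0.5 h against 0 h over both lines (adjusted p = 0.075). Without either of the NBTII 24 h arrays both were called (adjusted p = 0.029 and 0.037). In that early comparison over both lines 0 of 5 members were called, against 2.2% of all probe sets.

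**Figure D3:**
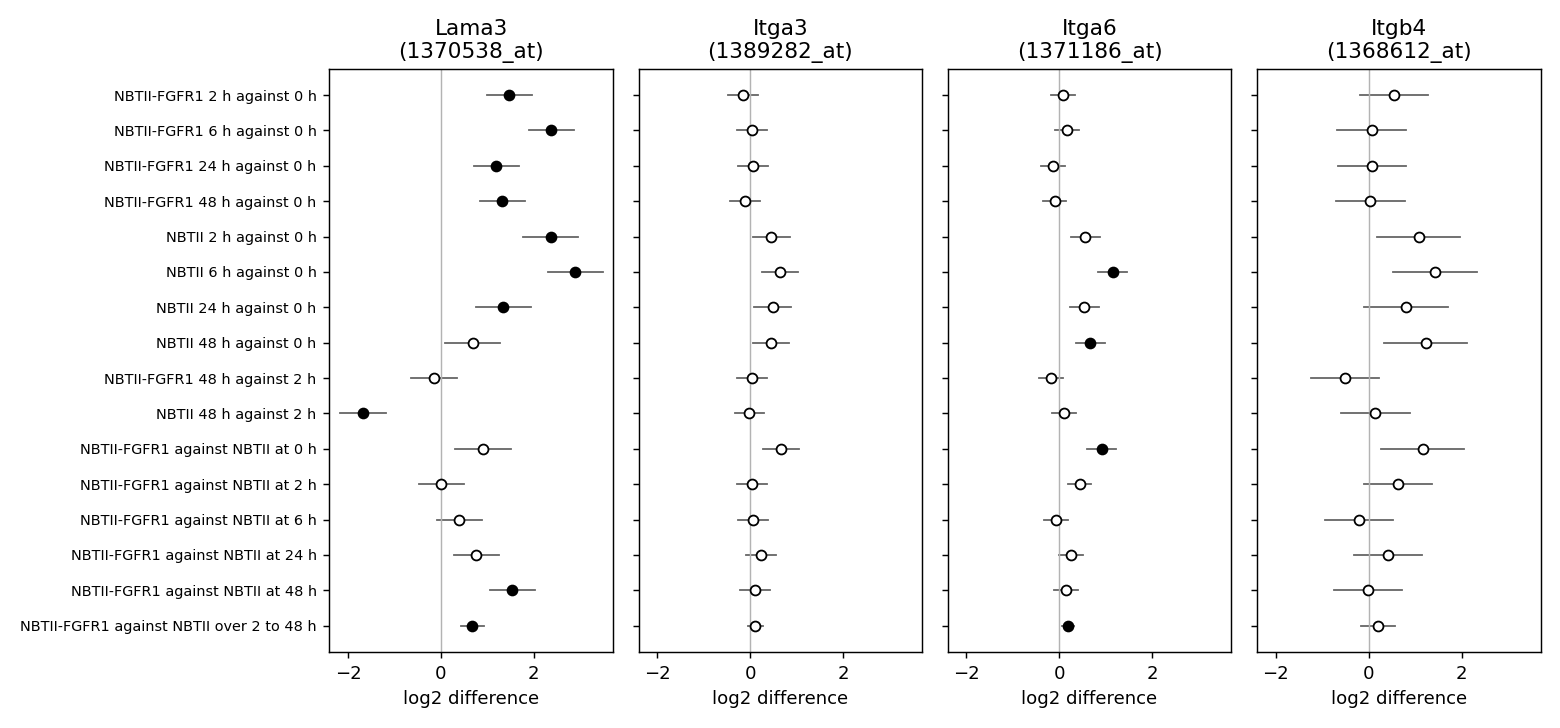
Log2 differences of Lama3, Itga3, Itga6 (1371186_at) and Itgb4 at 2 h and later and between the lines, with 95% confidence intervals of the limma fit. Filled points passed an adjusted p of 0.05. Lama3 carries most of the filled points, with 2.38 at 6 h in NBTII-FGFR1 and 2.89 at 6 h in NBTII, while Itga3 and Itgb4 have none.

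The 21 arrays share the line and time structure and the low NBTII 0 h array, so correlations over them are descriptions only. Pearson correlations of Lama3 over all 21 were 0.64 with Itga6 (1371186_at), 0.49 with Itga3 and 0.27 with Itgb4. Within NBTII-FGFR1 (11 arrays) they were 0.51, 0.08 and -0.07 in that order, and within NBTII (10 arrays) 0.70, 0.70 and 0.38. Among the integrin subunits, Itga3 and Itga6 correlated at 0.69 over the 21 arrays and Itga6 and Itgb4 at 0.65, against 0.32 and 0.29 within NBTII-FGFR1 and 0.74 and 0.70 within NBTII. The 2 Itga6 probe sets correlated at -0.24.

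The single-symbol genes most like Lama3 by Pearson correlation of log2 levels over the 21 arrays were Cdk17 (a cyclin-dependent kinase, 0.94), Nppb (the natriuretic peptide B precursor, 0.94) and Plekhg3 (0.93). Each was between 0.91 and 0.96 within either line, and each had its highest group mean in NBTII-FGFR1 at 6 h. By rank correlation only Plekhg3 stayed among the top 3. Itga3 was most like Aplp2 (0.81), Ncdn (0.75) and Fam234a (0.75), which were 0.51, 0.46 and 0.47 within NBTII-FGFR1, and 0.94, 0.83 and 0.75 within NBTII. Itga6 was most like Kif13a (0.83), Inf2 (0.82) and Kdm1b (0.81). These were 0.65, 0.68 and 0.56 within NBTII-FGFR1, and 0.86, 0.81 and 0.90 within NBTII. Itgb4 was most like Sptan1 (spectrin, 0.80), Lamc1 (a laminin gamma chain, at 1370993_at, 0.80) and Map4 (0.78). Within NBTII-FGFR1 they were 0.71, 0.60 and 0.81, and within NBTII 0.86, 0.85 and 0.80.

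**Figure D4:**
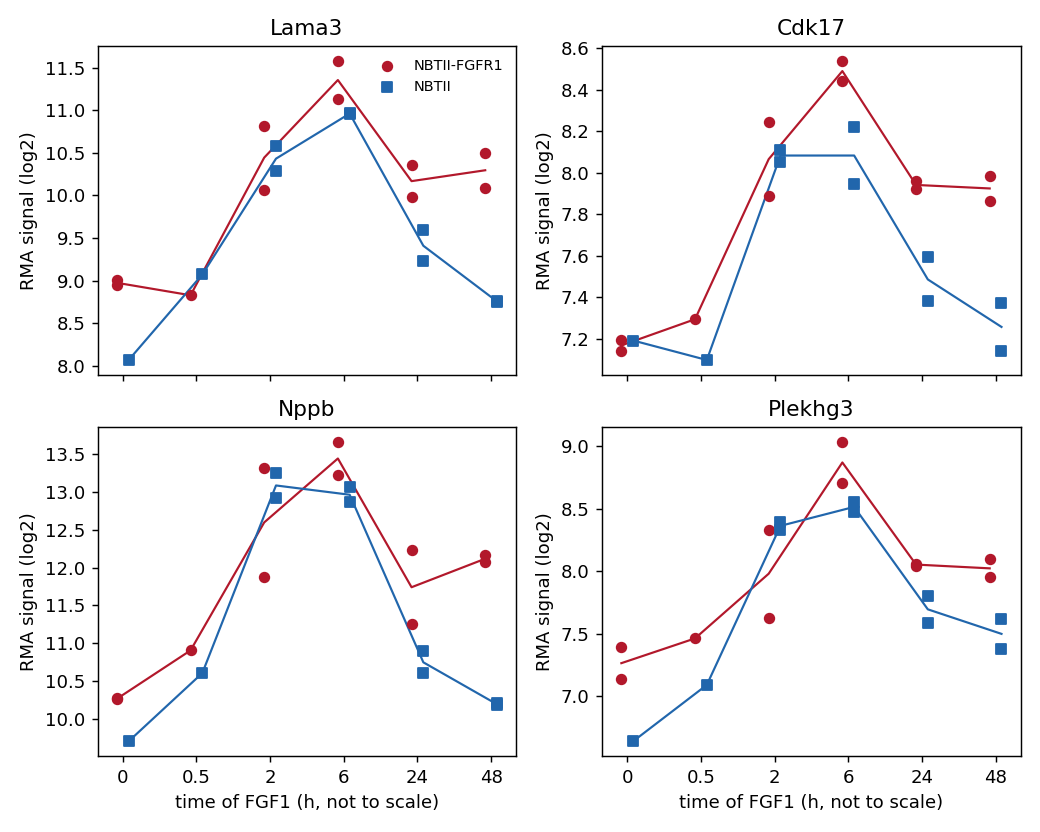
Log2 signal of Lama3 and of the 3 genes with the highest correlation to it, against time of FGF1 in hours (not to scale), with single arrays of NBTII-FGFR1 (red circles) and NBTII (blue squares) and lines through group means. All 4 are highest at 6 h in NBTII-FGFR1, and at 48 h the NBTII-FGFR1 arrays are above the NBTII arrays.

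The other genes of laminin adhesion were taken from 7 lists, with 51 genes measured, each by its probe set of highest mean. In NBTII-FGFR1 at 6 h against 0 h, 14 were higher and 6 lower, with a median difference of 0.04, against 0.02 over all probe sets tested, of which 21.3% were called. In NBTII at 6 h, 11 were higher and 0 lower, with a median of 0.13 against -0.01, where 5.9% of all were called. Over 2 to 48 h, 8 were higher and 4 lower in NBTII-FGFR1 than in NBTII (median -0.02 against -0.03, with 16.5% of all called), and at 48 h against 2 h in NBTII-FGFR1, 6 were higher and 9 lower (median -0.06 against 0.03, with 17.7% of all called). Without the 2 arrays that stand apart these counts were 12 and 6, 13 and 0, 10 and 5, and 6 and 11. All differences from 0 h in NBTII given for these genes below rest on the single NBTII 0 h array. The alternatives counted for these genes do not include the 0.5 h baseline, so they do not test that array.

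Among the other laminin chains, 2 of 7 fell in NBTII-FGFR1 at 6 h and 0 rose, where 21.3% of all probe sets were called, so the count is near the background. Lama5 (1388932_at), the alpha chain of laminins of mature basement membranes, fell by 1.53 ± 0.18 at 6 h (adjusted p = 4.69e-05), and was lower at 48 h than at 2 h by 0.95 ± 0.18, and lower than in NBTII over 2 to 48 h by 0.33 ± 0.09. Its other probe set, 1377428_at, with a mean of 3.60 below the lower quartile of the arrays (4.36 to 4.54), was called in none of these. Lamc1 (1371322_at) fell by 0.51 ± 0.15 at 6 h in NBTII-FGFR1 (adjusted p = 0.024), a call lost in 4 of 25 alternatives, and was higher by 0.92 in NBTII at 6 h (adjusted p = 0.0081). Its second probe set, 1370993_at, differed by -0.21 in NBTII-FGFR1 at 6 h (adjusted p = 0.34) and was higher by 1.12 in NBTII at 6 h.

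The hemidesmosome partners measured were Plec, the plectin linker, and Cd151, a tetraspanin that binds laminin-binding integrins. Plec was higher in NBTII at 6 h by 1.29 ± 0.28 (adjusted p = 0.013, lost with only the arrays compared and without NBTII 6 h replicate 1). In NBTII-FGFR1 at 6 h it differed by -0.60 (adjusted p = 0.078), and by -0.89 (adjusted p = 0.023) without the 2 arrays that stand apart. Cd151 was higher in NBTII-FGFR1 at 48 h than at 2 h by 0.38 ± 0.11 (adjusted p = 0.020, kept in 21 of 25 alternatives). Itgb1, the beta partner of Itga3, was the 1 of 7 other integrin subunits called in NBTII at 6 h, where 5.9% of all probe sets were called. It was higher by 0.89 ± 0.24 (adjusted p = 0.041, kept in 15 of 25 alternatives), against 0.05 in NBTII-FGFR1 at 6 h. Itgb5 was the 1 of 7 higher in NBTII-FGFR1 than in NBTII over 2 to 48 h, where 16.5% of all were called, so the count is near the background. The Itgb5 difference was 0.37 ± 0.10 (adjusted p = 0.019, kept in 22 of 25 alternatives), though its second probe set, 1370802_at, was not called (0.15).

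Of the 7 tetraspanins and other integrin-associated membrane proteins, 5 rose in NBTII-FGFR1 at 6 h and 0 fell, where 21.3% of all probe sets were called. Among them were Cd47 (1.23 ± 0.19), Cd82 (1.13 ± 0.24) and Cd81 (0.58 ± 0.12, lost when replicate 1 of the 0 h libraries labelled NBTII-FGFR1 was left out). At 48 h against 2 h, where 17.7% of all were called, 3 of 7 were higher in that line. These were Cd82 by 1.61 ± 0.24, Cd63 by 1.19 ± 0.16 and Cd47 by 0.77 ± 0.19 (kept in 24 of 25 alternatives). In the line comparison over 2 to 48 h, 3 of 7 were higher in NBTII-FGFR1 and 0 lower, where 16.5% of all were called. These were Cd47, Cd82 and Cd81, by 0.58, 0.56 and 0.43. The second probe set of Cd47, 1375635_at, was called in that line comparison (0.64) but not at 6 h (0.50, adjusted p = 0.21). At 48 h against 2 h in NBTII-FGFR1 it went the other way and was not called (-0.17, adjusted p = 0.73).

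Of 13 basement membrane genes, 1 was higher and 3 lower in NBTII-FGFR1 at 6 h, with 21.3% of all probe sets called: Nid2, a nidogen (0.80 ± 0.17), against Agrn, the proteoglycan agrin (-1.78 ± 0.26), Col4a5 (-1.29 ± 0.24) and Dag1, dystroglycan (-0.62 ± 0.17, kept in 22 of 25 alternatives). Of the 2 other Dag1 probe sets, 1389105_at was also lower (-0.71) and 1371430_at was not called (-0.35). In NBTII at 6 h, where 5.9% of all were called, 2 of the 13 were higher and 0 lower. These were Nid2 (1.27 ± 0.21, kept in 24 of 25 alternatives) and Col18a1 (0.96 ± 0.23, kept in 23 of 25). At 48 h against 2 h in NBTII-FGFR1, 1 was higher and 6 lower (17.7% of all called). Among them were Col7a1, the collagen of anchoring fibrils, at -1.55 ± 0.24, Agrn at -1.38 ± 0.26, Col18a1 at -1.28 ± 0.19 and Nid2 at 1.32 ± 0.17. Against NBTII over 2 to 48 h, 3 were lower in NBTII-FGFR1 (16.5% of all called): Sparc (-0.97 ± 0.15), Agrn (-0.58 ± 0.13) and Bcam, a laminin receptor (-0.50 ± 0.11). Mmp14, a membrane protease that cleaves laminin-332, was the 1 of 3 processing proteases called in NBTII-FGFR1 at 6 h (1.57 ± 0.21, with 21.3% of all called). It was also the 1 of 3 called in NBTII at 6 h (1.32 ± 0.26, adjusted p = 0.0075, with 5.9% of all called). Over 2 to 48 h it was again the 1 of 3 called, higher in NBTII-FGFR1 than in NBTII by 0.42 ± 0.11 (16.5% of all called).

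Of 12 integrin adaptors and kinases, 7 rose and 1 fell in NBTII-FGFR1 at 6 h, where 21.3% of all probe sets were called, and 5 rose and 0 fell in NBTII at 6 h, where 5.9% were. Zyx, a focal adhesion protein, rose by 2.31 ± 0.32, the kinase Src by 1.46 ± 0.21 and the adaptor Pxn, paxillin, by 1.28 ± 0.19. In NBTII at 6 h these 3 rose by 2.26 ± 0.39, 1.05 ± 0.26 and 0.86 ± 0.24, in the same order. The 3 other Src probe sets, 1368830_at, 1387352_at and 1389030_a_at, were also called higher at 6 h in NBTII-FGFR1. In NBTII at 6 h, 1368830_at (1.10) and 1389030_a_at (0.90) were called higher, and 1387352_at was not called (0.62, adjusted p = 0.16). Vcl, vinculin, was lower in NBTII-FGFR1 at 6 h by 0.52 ± 0.16 at 1375538_at (kept in 21 of 25 alternatives), but not called at 1372905_at (-0.20, adjusted p = 0.47). In NBTII at 6 h both were higher, by 1.17 and 1.12. Over 2 to 48 h, 3 of the 12 were higher in NBTII-FGFR1 than in NBTII and 0 lower, where 16.5% of all probe sets were called. These were Src (0.61 ± 0.11), Parva (0.44 ± 0.08) and Ilk (0.38 ± 0.07), where Parva is the partner of the integrin-linked kinase Ilk. At 48 h against 2 h in NBTII-FGFR1, where 17.7% of all probe sets were called, 1 of the 12 was higher, Src (0.78 ± 0.21, kept in 20 of 25 alternatives). In the same comparison 2 were lower, Zyx (-0.96 ± 0.32, adjusted p = 0.048, kept in 7 of 25) and Parva (-0.68 ± 0.16). The second Parva probe set, 1370266_at, was not called (-0.27).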

How the data were processed

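RNA of 21 rat samples was measured on 1 array each. The deposited values are log2 signals. Per the submitters' processing notes the authors used RMA, in a version not given in the sources used here. It was used as it stands, with no filter on low values. Of 15923 probe sets, 57 controls were left out and 15866 tested; 12783 carry 1 symbol.

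Groups came from the titles, which name 2 NBTII-FGFR1 arrays at 0 h although the design text gives control cells no duplicate. All 21 arrays entered 1 linear model in limma 3.58.1 (R 4.3.3), with a mean fitted for each of the 12 groups. The model had 9 residual and 5.68 prior degrees of freedom. P-values were adjusted by Benjamini-Hochberg over all 15866 probe sets per comparison, at a threshold of 0.05. The fit was tested on simulated data. Tables and figures used Python 3.11.15, pandas 2.3.3, numpy 2.4.6 and matplotlib 3.10.9. The number of arrays limits the precision. Errors after ± are standard errors.

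The members, lists and comparisons were chosen with earlier results of these data known. Named genes were all member probe sets, per list and for each of 3 comparisons up to 3 called genes per direction with the smallest p, and the 3 genes most correlated with each member. Itgb1, Plec, Lamc1, Nid2, Col18a1 and Mmp14 in NBTII, and the second probe sets, were named after their values were seen. Promoter windows are from RefSeq (GRCr8) and matched 3 of the 5 member genes. Alternatives were array weights, only the arrays compared, robust eBayes with a trend, quantile normalization once more, replicate numbers as a block, probe sets below the median left out, both arrays that stand apart left out, the 0.5 h baseline (added after seeing the data) and each of 18 arrays left out in turn.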

Additional observations from a re-analysis of the deposited data

How the results depend on the processing

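Over 110 results of single probe sets, 2800 values were recomputed: 2718 kept their direction and side of the threshold, apart from 53 uncalled differences that changed sign, 56 lost the call, 25 gained it and 1 reversed, Itga6 (1371186_at) in NBTII at 48 h, -0.10 from the 0.5 h baseline. Counts of members called (of 5) moved as follows. The setting without probe sets below the median drops Itga6 (1371185_at, mean 5.96), so its counts are over fewer member probe sets. Its p-values are likewise adjusted over fewer probe sets. In NBTII at 2 h the count of 1 became 2 without both arrays that stand apart or without probe sets below the median, and 0 with only the arrays compared. In NBTII at 6 h the count of 2 became 4 with array weights, 4 without probe sets below the median, 4 with a replicate block (Itga3 and Itgb4 added in all 3), 1 from the 0.5 h baseline and 0 with only the arrays compared. In NBTII at 24 h it became 0 from the 0.5 h baseline, and at 48 h it became 0 from that baseline, with trend and robust eBayes and with only the arrays compared. In NBTII-FGFR1 at 2 h it became 0 with only the arrays compared. Between the lines at 0 h, the count of 1 became 0 from the 0.5 h baseline and with only the arrays compared, and 2 with the replicate block. Over 2 to 48 h the count of 2 became 1 with array weights, without both arrays that stand apart, with trend and robust eBayes and with repeated quantile normalization. The difference in mean response gave 1 in place of 0 with array weights. Leaving out 1 array in turn, the counts ranged from 0 to 1 for 0.5 h over both lines, NBTII at 24 and at 48 h, NBTII-FGFR1 at 24 h, the NBTII-FGFR1 F test, the line difference at 0 h and at 2 h, and the line by time F test, from 1 to 2 for NBTII at 2 h and the NBTII F test, from 2 to 3 for NBTII at 6 h, and from 1 to 3 for the line difference over 2 to 48 h. The causes were not tested.

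The labels do not say whether replicate numbers pair the samples, and the main fit treats the arrays as unpaired. Between 36 pairs of groups, same-numbered arrays deviated together at r = -0.13 to 0.35 (median 0.02), 15 of them over 0.1. Over all probe sets the block changed the number called by over 1.5 times for the line difference at 0 h (125 with the block, 73 without) and at 24 h (32 and 16) and for the mean response (115 and 34). The lone NBTII 0 h array and both 0.5 h arrays stayed in every fit that left out 1 array, so these do not test them.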
